A study of Mus musculus with 12 samples.

Results

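The genes described here are 10 surface ligands through which other cells restrain or costimulate T cells: Cd274, Pdcd1lg2, Cd80, Cd86, Icosl, Cd40, Pvr, Nectin2, Tnfsf9 and Cd70. They were chosen by name, and all 10 were found among the 31053 genes of the deposited count matrices. Their transcripts were counted in single cells of mouse breast tumors, across gates for macrophages, monocytes, dendritic cells (DCs), neutrophils, tumor cells and T cells. A gate is a set of cells picked on raw molecule counts of marker genes, none of which is one of the 10 ligands.

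A T cell that meets antigen receives further signals through pairs of surface proteins. CD80 and CD86, of the B7 family, drive activation through CD28 and are competed for by the inhibitory receptor CTLA-4, while their relatives PD-L1 (Cd274) and PD-L2 (Pdcd1lg2) bind the inhibitory receptor PD-1, and ICOSL binds ICOS. CD40 sits on antigen presenting cells and is triggered by CD40 ligand from helper T cells. The poliovirus receptor (Pvr) and Nectin2 bind the activating receptor CD226 as well as the inhibitory TIGIT, CD96 and PVRIG, and the TNF family members 4-1BB ligand (Tnfsf9) and CD70 engage 4-1BB and CD27 on activated T cells. Migratory DCs, which have taken up antigen and express Ccr7 and Fscn1, are known for raising many of these ligands together.

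The cells came from tumors of PyMT mice, whose MMTV-PyVT transgene expresses polyoma virus middle T antigen in mammary epithelium from the MMTV promoter. All groups carried this transgene and received no further treatment. The 12 samples were 3 PAR2 wild-type and 3 PAR2 G37I samples of CD11c-selected cells, from late-stage tumors, and 3 and 3 samples of CD4/CD8-selected T cells, from mid-sized tumors. PAR2 G37I is a germline point mutant of protease activated receptor 2 that resists activation by coagulation factor Xa. Bead-selected cells had been frozen and thawed before droplet capture (10x Genomics), where a unique molecular identifier (UMI) tags every mRNA molecule. Ages of the mice were not among the sample labels.

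Each selected population was deposited as 1 matrix that pools its 6 samples, with barcodes that do not name the sample. Each matrix was therefore 1 sample here, no genotypes were compared, and no test was made. The CD11c matrix kept 11639 cells with at least 200 detected genes (median 7943 UMIs per cell), and the CD4/CD8 matrix kept 22806 cells (median 4361 UMIs). The barcodes of each matrix pass through the alphabet 6 times. Values in these 6 barcode runs, where a run held at least 5 cells of a gate, are given as a measure of spread, but it is not known which sample or genotype a run holds, and 76 and 51 barcodes occurred in more than 1 run of the 2 matrices. A level is the sum of a gene's UMIs over the cells of a gate per 1000000 UMIs of that gate (CPM), and 95% confidence intervals (CI) are exact Poisson intervals that cover counting error only. Levels are compared between gates within a gene, and not between genes.

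In the CD11c matrix the gates held 5764 macrophages, 496 type 1 conventional DCs (cDC1), 249 type 2 conventional DCs (cDC2), 192 migratory DCs, 59 monocytes, 102 neutrophils, 367 Retnla Ear2 myeloid cells, 276 tumor cells, 90 fibroblasts and 76 T cells. A further 3858 cells passed no gate and 44 passed more than 1. Of 25 marker genes that the gates had not used, 22 were highest in the gate they mark. The exceptions were Fcgr1, highest in monocytes, Irf8, highest in migratory DCs, and Cd7, highest in T cells. Doublets were not removed. The T cell gate of this matrix held Il4i1, a migratory DC marker, at 56.7 CPM against 3.15 in macrophages, and its ligand values are therefore given only beside those of the CD4/CD8 matrix, which held 16819 CD8 T cells.

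By the GENCODE M21 annotation of mouse build GRCm38, several of the ligand genes are neighbors. Cd274 (chr19:29367455-29388095) and Pdcd1lg2 (chr19:29410919-29471161) lie 22.8 kb apart on the same strand with no annotated gene between them. Tnfsf9 (chr17:57105325-57107757) and Cd70 (chr17:57145997-57149777) lie 38.2 kb apart on opposite strands, and Nectin2 (chr7:19716644-19750483) and Pvr (chr7:19903578-19921160) lie 153.1 kb apart on the same strand with 6 protein-coding genes between them. Cd86 (chr16:36603869-36666081) and Cd80 (chr16:38455561-38496335) share a chromosome but are 1789 kb apart. Icosl (chr10:78069302-78083913) and Cd40 (chr2:165055627-165072948) stand alone. Cd274, Pdcd1lg2, Pvr and Nectin2 each overlap an annotated antisense gene, and Tnfsf9 overlaps Gm11110, a long noncoding RNA gene on the opposite strand. The strand setting of the counting is not given in the sources used here.

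Promoter sequence from RefSeq (GRCm38.p6) was held for 5 of the 10 genes. The 250 bases before the annotated start are shown for 3 genes that were high together in migratory DCs (Cd274, Pdcd1lg2 and Cd80) and for Nectin2, which was high in tumor cells. The start is that of RefSeq, which can differ from that of GENCODE. The sequences read 5′ to 3′ along the gene, and capitals mark matches, on either strand, to 5 short motifs: a kappaB-like motif (GGGNNTTTC), an interferon response element-like motif (GAAANNGAA), a gamma activated site-like motif (TTCNNNGAA), an AP-1-like motif (TGANTCA) and a GC box (GGGCGG).
Cd274 (chr19:29367188-29367437, plus strand): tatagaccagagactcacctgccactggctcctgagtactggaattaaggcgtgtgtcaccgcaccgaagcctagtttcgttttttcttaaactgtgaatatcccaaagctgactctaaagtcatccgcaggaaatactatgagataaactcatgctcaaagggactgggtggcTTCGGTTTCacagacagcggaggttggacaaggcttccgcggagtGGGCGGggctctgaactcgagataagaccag
Pdcd1lg2 (chr19:29410669-29410918, plus strand): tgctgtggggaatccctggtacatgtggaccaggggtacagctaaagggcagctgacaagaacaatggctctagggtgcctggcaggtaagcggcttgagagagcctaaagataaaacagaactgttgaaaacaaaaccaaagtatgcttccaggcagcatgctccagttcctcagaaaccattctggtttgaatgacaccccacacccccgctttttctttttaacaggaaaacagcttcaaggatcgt
Cd80 (chr16:38458683-38458932, plus strand): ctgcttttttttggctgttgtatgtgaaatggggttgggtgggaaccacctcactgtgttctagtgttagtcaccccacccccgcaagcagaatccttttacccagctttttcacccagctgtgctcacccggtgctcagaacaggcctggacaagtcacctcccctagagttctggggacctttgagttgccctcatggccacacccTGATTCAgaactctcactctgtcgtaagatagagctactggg
Nectin2 (chr7:19749574-19749823, minus strand): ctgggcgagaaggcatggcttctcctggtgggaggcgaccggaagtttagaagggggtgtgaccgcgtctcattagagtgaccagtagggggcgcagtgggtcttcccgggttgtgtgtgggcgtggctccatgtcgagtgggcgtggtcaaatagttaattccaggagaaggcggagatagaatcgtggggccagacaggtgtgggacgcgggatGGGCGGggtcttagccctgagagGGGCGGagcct
Within these windows the Cd274 promoter held the interferon response element-like motif 76 bases before the start and a GC box 31 bases before it. The Cd80 promoter held the AP-1-like motif 42 bases before the start, the Nectin2 promoter held 2 GC boxes, and the Pdcd1lg2 promoter matched none of the 5 motifs. Of all 32851 promoters of this length, 7.13% held the interferon response element-like motif, 6.75% the AP-1-like motif, 32.7% a GC box, 3.72% the kappaB-like motif and 7.02% the gamma activated site-like motif. A match describes letters and not a binding site.

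Several of these transcripts were highest in migratory DCs. Against macrophages, 7 of the 10 ligands stood at 2-fold or more in migratory DCs (Cd274, Pdcd1lg2, Cd80, Cd40, Pvr, Nectin2 and Cd70), where 17% of the 12896 genes with at least 20 UMIs did so, and no ligand was lower by 2-fold, as 23.6% of genes were. The median log2 fold over the 10 ligands was 2.31, beside -0.17 over all genes tested. Against cDC1, 8 of 10 were higher (background 15.4% of genes), and against cDC2, 5 of 10 were higher (background 13.2%). Calls of 2-fold were made with 1 UMI added to each sum, and with 1 sample of each gate they carry no test. In the 5 barcode runs with at least 5 migratory DCs, 8 of the 10 ligands were above the macrophages of the same run in every run, and Nectin2 and Tnfsf9 in 4 of 5.

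**Figure D1:**
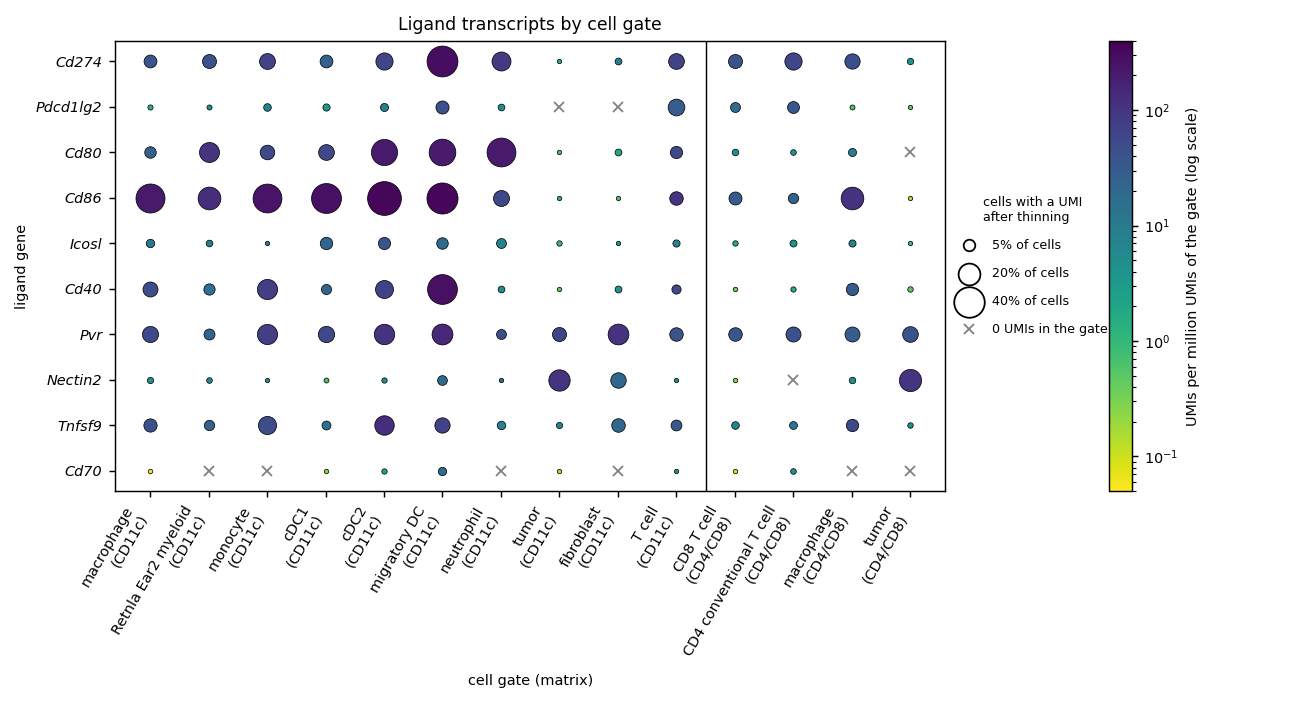
Levels of the 10 ligand genes (rows) in the cell gates of both matrices (columns, CD11c matrix left of the line). Color gives CPM on a log scale, dot area rises with the share of cells with a UMI after each cell was thinned to 2000 UMIs, and crosses mark gates with 0 UMIs; the darkest and largest dots of Cd274, Cd40 and Cd70 lie in migratory DCs, and the darkest of Nectin2 among gates with at least 50 cells in tumor cells.

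Among the CD11c matrix gates with at least 50 cells, the ligands of PD-1 were both highest in migratory DCs. Cd274 stood at 292 CPM there (CI 269.7 to 315), 7.76-fold the 37.6 CPM of macrophages (fold CI 7.11 to 8.48). The migratory DCs of the 5 runs held 328, 311, 252, 199 and 353 CPM, and the macrophages of the 6 runs 23.9 to 48.9, so the ranges did not overlap. The highest run of neutrophils (210.2 CPM) reached into the range of migratory DCs. Neutrophils (85.8 CPM), monocytes (68.8) and cDC2 (60.6) came next, and the intervals of these neighbors overlapped. cDC1 had the lowest level of Cd274 among the myeloid gates, 25.4 CPM (CI 22.1 to 29.1), 11.5-fold below migratory DCs. After thinning each cell to 2000 UMIs, a Cd274 transcript was found in 40.9% of migratory DCs and 6.38% of macrophages, against 79.2% and 22.1% without thinning. The median depths of these gates were 10209 and 8687 UMIs per cell. Tumor cells, at a median of 15842 UMIs, held 9 Cd274 UMIs in all (1.365 CPM, CI 0.624 to 2.59), found in 3.26% of the 276 cells. After thinning 0 of 230 had one, which allows a share of cells with a UMI at 2000 UMIs per cell of up to 1.30%. Those values are of the CD11c matrix. The 238 tumor cells of the CD4/CD8 matrix gave 0.749 to 6.64 CPM over the 6 runs, and run 3 alone held 14 Cd274 UMIs.

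Pdcd1lg2, encoded next to Cd274, reached 44.9 CPM in migratory DCs (CI 36.5 to 54.7), 35.8-fold its level in macrophages (fold CI 26.3 to 48.7). The runs gave 17.3, 48.9, 56.4, 66.2 and 44.9 CPM. The run with 17.3 CPM stood apart from the others but was still above every macrophage value, which ranged from 0.856 to 1.74. Among the other myeloid gates cDC2 followed at 8.99 CPM, and monocytes, neutrophils, Retnla Ear2 myeloid cells and cDC1 lay between 3.24 and 6.72 with overlapping intervals. T cells with a Foxp3 transcript and no Cd8a or Cd8b1 in the CD4/CD8 matrix, described below, held more Pdcd1lg2 than migratory DCs. Tumor cells of the CD11c matrix gave 0 Pdcd1lg2 UMIs, which allows up to 0.455 CPM, so the level there was at most 0.362 of that of macrophages. The tumor cells of the CD4/CD8 matrix did hold some, with 2 UMIs in barcode run 3 (0.860 CPM) and 1 in run 5 (1.35 CPM).

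Cd80 and Cd86, the ligands of CD28 and CTLA-4, differed in where they were found. Cd80 was at much the same level in cDC2 (218 CPM, CI 203 to 234) and migratory DCs (209, CI 190.1 to 229). Summed over all their cells, neutrophils held 217 CPM (CI 174 to 268), and these intervals overlapped. The neutrophil runs listed in the next paragraph nevertheless all lay above the runs of migratory DCs. Cd80 in neutrophils stood at 287 CPM as a mean over cells and at 279 CPM without barcode run 1. Retnla Ear2 myeloid cells held 105 CPM, cDC1 57.7 and macrophages 23.4, so migratory DCs stood 8.92-fold above macrophages. The macrophages of the 6 runs ranged from 14.3 to 37.1 CPM, below every run of cDC2 (139.8 to 260.2) and of migratory DCs (164 to 237). Cd86 was spread far more evenly over the DC, monocyte and macrophage gates. It stood at 347 CPM in migratory DCs (CI 323 to 372), 336 in cDC2, 274 in cDC1, 245 in monocytes and 220.1 in macrophages, and the first and last of these differed 1.58-fold. Retnla Ear2 myeloid cells held less Cd86, 124 CPM, and were below macrophages in all 6 runs. Neutrophils stood above macrophages in Cd80, 9.28-fold (fold CI 7.38 to 11.5), and below them in Cd86, with 58.1 CPM, 0.264 of the macrophage level (fold CI 0.167 to 0.396). Tumor cells held 0.607 CPM of Cd80 and 1.21 CPM of Cd86.

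The neutrophil values rest on 102 cells with a median of 3057 UMIs. Against macrophages 4 of 9 ligands with enough UMIs were higher by 2-fold (Cd274, Pdcd1lg2, Cd80 and Nectin2), beside 37.4% of all genes, and 3 were lower (Cd86, Cd40 and Tnfsf9), beside 9.92%. Of the 4 that were higher, Pdcd1lg2 rests on 2 UMIs (ratio 4.02, CI 0.478 to 15) and Nectin2 on 7 UMIs that all sat in 1 cell. The gate also held the tumor markers Cldn3 at 237 CPM and Cldn4 at 109 CPM, against 1.56 and 1.76 in macrophages, and the part of tumor transcripts in the Nectin2 value was not tested. Cd80 was found in 47 of the 102 neutrophils, and its runs gave 284, 707, 294 and 243 CPM, all above the macrophages. The run with 707 CPM held 5 neutrophils. Cd274 gave 189, 157, 210.2 and 55.3 CPM in the same runs. The run not listed held under 5 neutrophils, and without it Cd80 stood at 279 CPM, Cd274 at 112 and Nectin2 at 0. The macrophage marker Adgre1 stood at 0.254 of its macrophage level in this gate, and Mertk gave 0 UMIs.

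Icosl, the ligand of the costimulatory receptor ICOS, was highest in cDC2 at 36.9 CPM (CI 30.7 to 43.8), above cDC1 (21.9, CI 18.9 to 25.4) and migratory DCs (19.97, CI 14.5 to 26.8), whose intervals overlapped. Migratory DCs did not reach 2-fold over any of these gates or over macrophages: there Icosl stood at 0.542 of its level in cDC2 (fold CI 0.376 to 0.769) and 1.83-fold above macrophages. In each of the 5 runs with at least 5 migratory DCs, Icosl was higher in cDC2 than in migratory DCs. Macrophages held 10.9 CPM and tumor cells 0.910.

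Cd40, the receptor through which helper T cells license antigen presenting cells, was highest in migratory DCs, as Cd274 was. Migratory DCs held 281 CPM (CI 259.6 to 304), with 267, 183, 318, 202 and 335 CPM in the 5 runs. That was 5.63-fold the macrophage level of 49.98 CPM (fold CI 5.16 to 6.14), 4.02-fold the level in cDC2 and 12.5-fold that in cDC1. Monocytes (78.9 CPM) and cDC2 (69.9) lay next in order with overlapping intervals. The lowest run of migratory DCs was above the highest run of every other gate given here. In neutrophils Cd40 gave 2 UMIs and in tumor cells 3, at ratios to macrophages of 0.101 (CI 0.0122 to 0.365) and 0.00911 (CI 0.00188 to 0.0266). Cd274 differed here, as it stood in neutrophils at 2.28-fold the macrophage level.

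Pvr and Nectin2, which bind CD226 and TIGIT, stood in tumor cells and fibroblasts at or above their macrophage levels. The level of Pvr ran from 24.1 CPM in Retnla Ear2 myeloid cells to 148 in migratory DCs (CI 132 to 165), with 109.7 in fibroblasts, 107 in cDC2, 64.2 in tumor cells and 52.8 in macrophages. The migratory DC runs spread from 78.3 to 179 CPM and overlapped those of cDC2 (86.5 to 123). Of the gates with at least 50 cells, Nectin2 was highest in tumor cells at 102 CPM (CI 94.4 to 109.9), 22.3-fold above macrophages (fold CI 19.4 to 25.7). The tumor cells of the 5 runs gave 104, 93.8, 101, 84.2 and 104 CPM, a narrow range, and the tumor cells that had passed into the CD4/CD8 matrix gave 101.5. Fibroblasts (20.4 CPM) and migratory DCs (19.5) followed, and 29 endothelial cells, too few to compare, held 176 CPM. Among migratory DCs the runs ranged from 0 to 28.2, and cDC1 held 0.719 CPM.

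Against macrophages, tumor cells were higher in 1 of the 9 ligands with enough UMIs, Nectin2, where 29.4% of 13756 genes were higher, and lower in 7, where 18.1% of genes were lower. The 7 were Cd274, Pdcd1lg2, Cd80, Cd86, Icosl, Cd40 and Tnfsf9, and Pvr was at 1.21-fold (fold CI 1.10 to 1.34). The median log2 fold over the 9 ligands was -3.36, beside 0.32 over all genes tested. In all 5 runs with at least 5 tumor cells, the 7 were lower and Nectin2 was higher than in macrophages. Of transcripts that mark macrophages, tumor cells held Adgre1 at 0.00201 and Mertk at 0.0455 of the macrophage level.

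The TNF family ligands differed between the DC gates. Tnfsf9 was highest in cDC2 at 129 CPM (CI 117 to 141), followed by migratory DCs (69.0, CI 58.4 to 80.8), monocytes (48.7) and macrophages (45.2). cDC1 held 14.03 CPM, 9.18-fold below cDC2 (fold CI 7.47 to 11.3), and in all 6 runs cDC2 (75.9 to 172) stood above cDC1 (4.95 to 20.4). Fibroblasts held 21.7 CPM of Tnfsf9, and the 70 fibroblasts of the CD4/CD8 matrix 64.4 (CI 50.4 to 81.2). Of the CD11c matrix gates with at least 50 cells, Cd70 passed 1 CPM in migratory DCs, cDC2 and the T cells. The levels were 18.1 CPM in migratory DCs (CI 13.0 to 24.7), 2.03 in cDC2 (from 7 UMIs) and 3.91 in the T cells (from 2 UMIs). In the CD4/CD8 matrix, CD4 conventional T cells also passed 1 CPM, with 10 UMIs in 571 cells, while CD8 T cells held 0.0762 CPM. Migratory DCs held 40 Cd70 UMIs, found in 12.5% of the cells, and all 5 runs had some, at 19.4, 5.15, 33.2, 9.03 and 12.0 CPM. Macrophages held 4 Cd70 UMIs in 62902719, so that the ratio of 285 has a wide interval (CI 103 to 1098).

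The DC gates can be read side by side. Between cDC2 and cDC1, 6 of 9 ligands with enough UMIs were higher by 2-fold in cDC2 (Cd274, Pdcd1lg2, Cd80, Cd40, Nectin2 and Tnfsf9), beside 10.6% of 10109 genes, and none was lower by 2-fold. The median log2 fold was 1.47 over the 9 ligands and -0.08 over all genes tested. In all 6 runs cDC2 was above cDC1 in Pdcd1lg2, Cd80, Icosl, Cd40, Pvr, Nectin2 and Tnfsf9, and in 5 of 6 runs in Cd274 and Cd86. Cd86 (1.23-fold) and Icosl (1.68-fold) were those of the B7 family that differed least between these gates. From cDC2 to migratory DCs, Cd80 (0.958-fold, CI 0.851 to 1.08) and Cd86 (1.03-fold, CI 0.940 to 1.13) stood at ratios whose intervals include 1, Tnfsf9 was at 0.535-fold and Icosl at 0.542-fold, while Cd274, Pdcd1lg2, Cd40, Nectin2 and Cd70 were 4.02 to 8.94-fold higher.

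**Figure D2:**
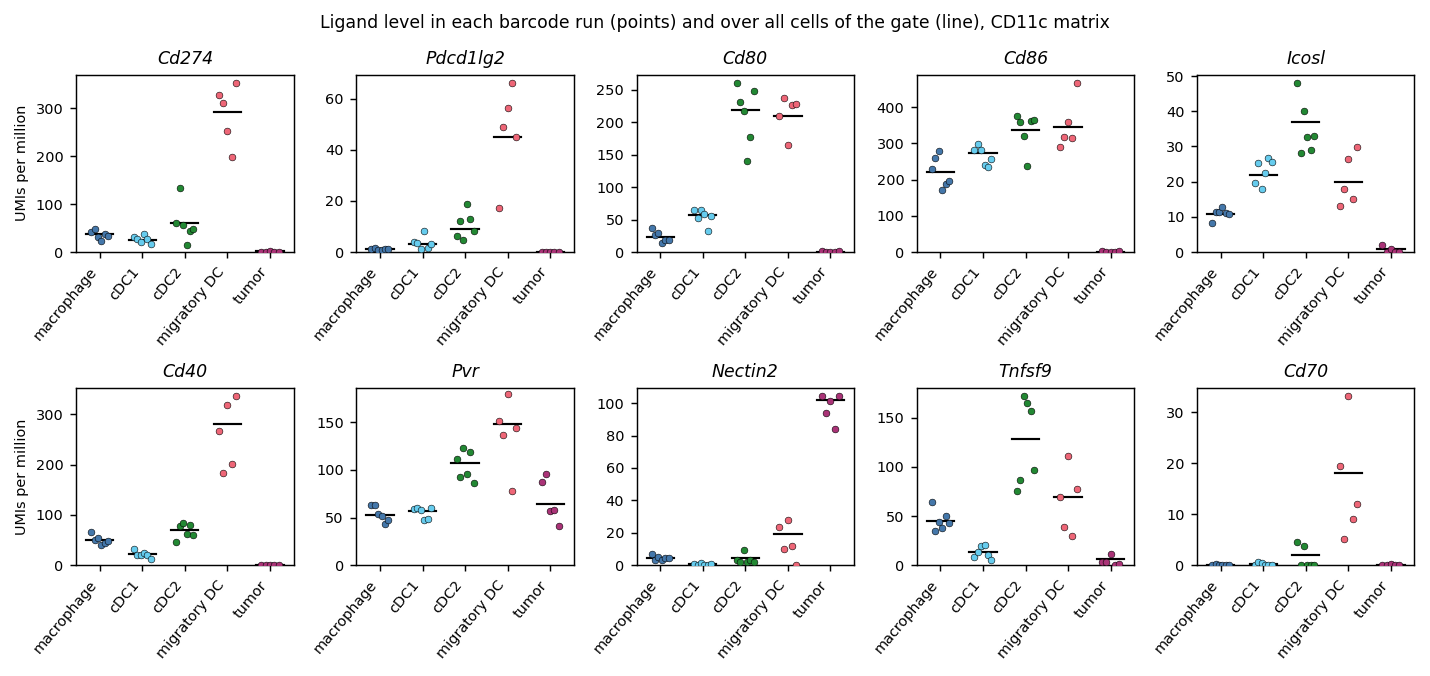
Each panel plots 1 ligand gene, with CPM on the y axis for 5 cell gates of the CD11c matrix. Points are barcode runs with at least 5 cells of the gate and lines are the level over all cells; the points of migratory DCs lie above the other gates plotted for Cd40 and Cd274, and those of tumor cells above the others plotted for Nectin2.

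Retnla Ear2 myeloid cells, picked on Retnla, Ear2 and Fn1, held more Cd80 (4.48-fold, CI 4.10 to 4.88) and Pdcd1lg2 (2.99-fold, CI 1.88 to 4.63) than macrophages, 2 of 9 ligands beside a background of 9.76%. They held less Cd40 (0.270, CI 0.220 to 0.328) and Pvr (0.456, CI 0.392 to 0.529), 2 of 9 beside 15.8%. Their Cd80 runs, 87.9 to 137 CPM, lay above every macrophage run.

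Macrophages were not uniform. The Gpnmb Trem2, Il10, Thbs1 Vegfa and Tmem119 Zmynd15 gates hold only macrophages that passed no other macrophage gate. The other macrophages set beside each gate include cells that passed several, so some of them also held its marker transcripts. The Gpnmb Trem2 gate, named for genes of lipid handling and phagocytosis, held 163 of the 442 macrophages that passed on these genes. It had the lowest level of Cd86 among the macrophage gates, 60.1 CPM (CI 52.2 to 68.9), 0.262 of the 229 CPM in the other macrophages. These 163 cells were lower by 2-fold in 3 of 9 ligands (Cd80, Cd86 and Icosl), beside 7.99% of 12717 genes. Their Cd274 level, 48.8 CPM, was not lower but 1.32-fold that of the other macrophages (CI 1.12 to 1.54). The gate was also the deepest, at 18408 UMIs in its median cell, where all macrophages had 8687.

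Il10 encodes an inhibitory cytokine. The Il10 gate (977 of the 1500 macrophages with an Il10 transcript) held the most Tnfsf9 and Cd40 of these gates. Over all 1500, Tnfsf9 stood at 76.7 CPM. In the 977 cells Tnfsf9 stood at 95.4 CPM against 36.5 in the other macrophages (2.61-fold, CI 2.41 to 2.83). It was the 1 ligand of 9 that was higher by 2-fold, beside 5.34% of genes. Cd40 stood at 86.7 against 43.6 CPM, just inside 2-fold (1.99, CI 1.83 to 2.15). Their Tnfsf9 runs ranged from 35.9 to 129.6 CPM and overlapped those of all macrophages (34.6 to 64.3). Cd40 passed 2-fold when barcode run 1, 2 or 4 was left out, which brought the count to 2.

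Thbs1 Vegfa macrophages (454 cells) held the most Cd80, 61.4 CPM (CI 54.8 to 68.6), 3.06-fold the other macrophages. Cd80 and Pdcd1lg2 (2.67-fold, from 15 UMIs) were the 2 of 9 ligands higher by 2-fold, beside 4.88% of genes, and Icosl was at 0.412 (CI 0.262 to 0.618). Their Cd80 runs, 53.5 to 74.5 CPM, all exceeded the highest run of all macrophages. Counting every macrophage that passed the Thbs1 Vegfa gate, also those that passed another macrophage gate, brought Cd80 to 36.9 CPM.

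Tmem119 Zmynd15 macrophages (916 cells) had the reverse order, with the most Icosl (17.8 CPM, 1.90-fold, CI 1.61 to 2.24) and low Cd80. They were lower by 2-fold in 3 of 9 ligands (Pdcd1lg2, Cd80 and Tnfsf9), beside 9.61% of genes, with Tnfsf9 at 18.6 against 51.2 CPM. Cd86 (240 CPM) was 1.11-fold the level of the other macrophages (CI 1.07 to 1.16). Macrophages with a Cxcl9 transcript, a gene induced by interferon gamma, held 63.5 CPM of Cd274 (CI 55.7 to 72.1) against 35.9 in macrophages without one.

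**Figure D3:**
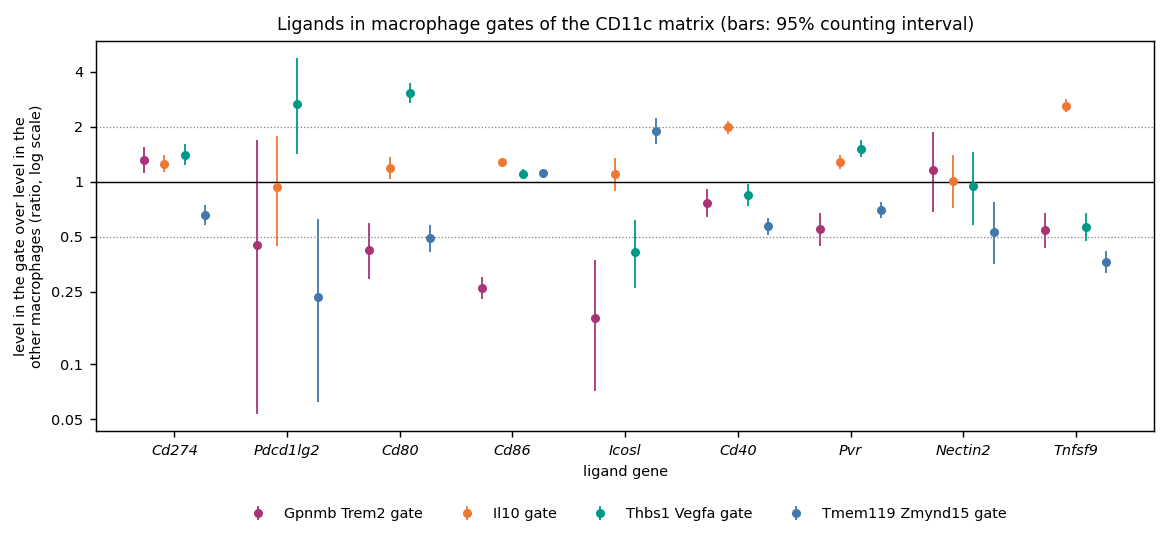
The ratio of each ligand's level in a macrophage gate to its level in the other macrophages (y axis, log scale), with 95% counting intervals and dotted lines at 2-fold. Each gate holds the macrophages that passed no other macrophage gate, and the other macrophages include cells that passed several. Cd86 in the Gpnmb Trem2 gate lies at 0.262, Tnfsf9 in the Tmem119 Zmynd15 gate at 0.364, Tnfsf9 in the Il10 gate at 2.61 and Cd80 in the Thbs1 Vegfa gate at 3.06.

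T cells of the CD4/CD8 matrix also held ligand transcripts. CD8 T cells held Cd274 at 41.0 CPM (CI 39.7 to 42.3), Pvr at 36.3, Cd86 at 30.6, Pdcd1lg2 at 17.4 (CI 16.6 to 18.3), Tnfsf9 at 7.80 and Cd80 at 4.88. Cd40 (0.370), Nectin2 (0.261) and Cd70 (0.0762, from 7 UMIs) were all under 1 CPM. The 6 runs of CD8 T cells ranged from 28.9 to 48.4 CPM for Cd274 and from 12.8 to 20.8 for Pdcd1lg2.

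To set these values beside transcripts of other cells, each was divided by its level in macrophages. In CD8 T cells 6 genes that mark macrophages (Apoe, Adgre1, Fcgr1, Mertk, Lyz2 and Pf4) stood at 0.00116 to 0.00230 of their level in the macrophages of the same matrix. The ligands stood above this ratio. Cd274 was at 0.879 (CI 0.812 to 0.953), Cd86 at 0.278 (CI 0.262 to 0.295) and Tnfsf9 at 0.141, while Pvr was at 1.23 (CI 1.12 to 1.36) and Pdcd1lg2 at 27.3 (CI 14.8 to 57.0). Cd40, at 0.0118 (CI 0.00805 to 0.0167), was the ligand closest to the macrophage genes. Barcode run 3 gave 430 of the 826 macrophages, and several ratios depended on it. Without run 3, chosen after seeing the data, Cd274 stood at 1.498 (CI 1.26 to 1.80) and Pvr at 0.838 (CI 0.730 to 0.967), so both changed sides of 1. Cd86 stood at 0.106, Cd80 at 0.257, Icosl at 0.147, Tnfsf9 at 0.344 and Pdcd1lg2 at 14.03, while the 6 macrophage genes ranged from 0.000399 to 0.000814. The 9 ligands stayed above the macrophage genes with any 1 run left out.

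**Figure D4:**
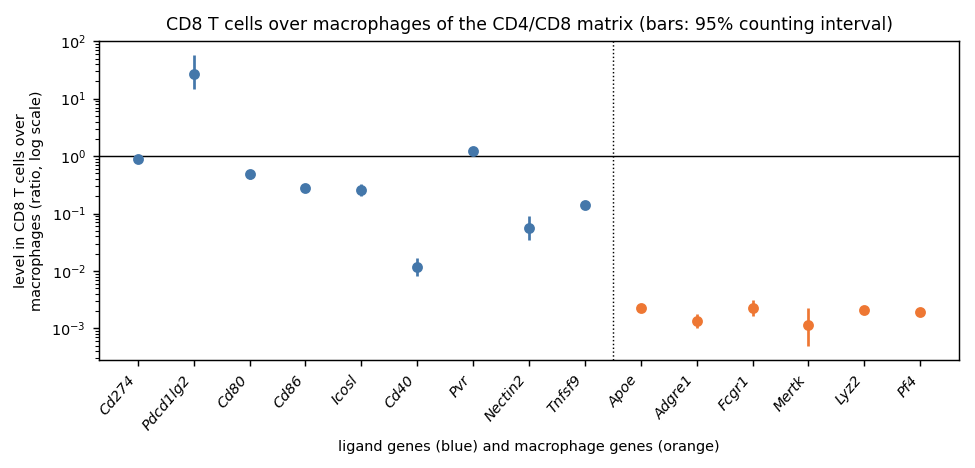
The level of each gene in CD8 T cells over its level in macrophages of the CD4/CD8 matrix (y axis, log scale; bars are 95% counting intervals), for 9 ligands in blue and 6 macrophage genes in orange. All 9 ligands lie above the macrophage genes, from 0.0118 for Cd40 to 27.3 for Pdcd1lg2 (14.03 without barcode run 3).

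CD4 conventional T cells (571 cells) held more of 3 of 9 ligands than CD8 T cells by 2-fold, beside 12.2% of 12890 genes: Pdcd1lg2 (35.2 against 17.4 CPM, 2.02-fold, CI 1.61 to 2.51), Icosl (2.24-fold, from 10 UMIs) and Cd40 (4.32-fold, from 4 UMIs). Cd70 fell short of the minimum of 20 UMIs, with 10 UMIs in 571 CD4 cells against 7 in 16819 CD8 cells, a ratio of 52.5 (CI 18.0 to 163). Cd274 was at 60.03 CPM, 1.47-fold that of CD8 T cells. Barcode run 1 gave 369 of the 571 CD4 cells. There Pdcd1lg2 stood at 30.9 CPM in CD4 and 18.8 in CD8 T cells. Among the other runs it ranged from 14.4 against 12.8 CPM (run 2, 13 CD4 cells) to 58.3 against 20.8 (run 6, 21 CD4 cells). Foxp3 is the factor that defines regulatory T cells. The 98 T cells with a Foxp3 transcript and none of Cd8a or Cd8b1 held Pdcd1lg2 at 99.7 CPM (CI 74.4 to 131). It was found in 34.7% of these cells before and 13.3% after thinning. In CD8 T cells those shares were 8.57% and 3.50%, at median depths of 4328 and 4579 UMIs. The runs of Foxp3 T cells, 66.3 to 163 CPM, lay above every run of CD8 T cells. This gate was set after the data were seen. A narrower gate that also required a Cd4 transcript held 37 cells. Its runs with at least 5 cells gave 91.8 to 125 CPM of Pdcd1lg2.

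Among CD8 T cells, Cd274 and Cd86 differed between states. Cells rich in the interferon induced genes Isg15, Ifit1 and Ifit3 (1838 cells) held Cd274 at 84.5 CPM (CI 79.3 to 90.1) and Cd86 at 73.5 (CI 68.6 to 78.7). Cycling cells (1911 cells) held 34.5 and 24.4 CPM. For Cd274, the interferon runs (59.2 to 107 CPM) did not overlap those of the cycling cells (22.3 to 48.8). Cells with Pdcd1 and Havcr2, as in terminal exhaustion, held less Cd274 (32.1 CPM, CI 26.2 to 39.1) and more Cd86 (57.3, CI 49.2 to 66.3) than cells with Pdcd1 and Tcf7, as in progenitor exhaustion (50.4, CI 46.5 to 54.5, and 33.5, CI 30.4 to 36.9). Pvr ranged from 29.1 to 33.2 CPM over the 4 states, with overlapping intervals. Macrophage transcripts moved with Cd86: Lyz2 stood at 77.3 CPM in the Pdcd1 Havcr2 cells against 37.6 in the Pdcd1 Tcf7 cells, Pf4 at 6.37 against 2.24, and Lyz2 at 80.8 in the interferon cells against 39.5 in the cycling cells. Their part in the result was not tested. A cell could be in several of these gates.

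**Figure D5:**
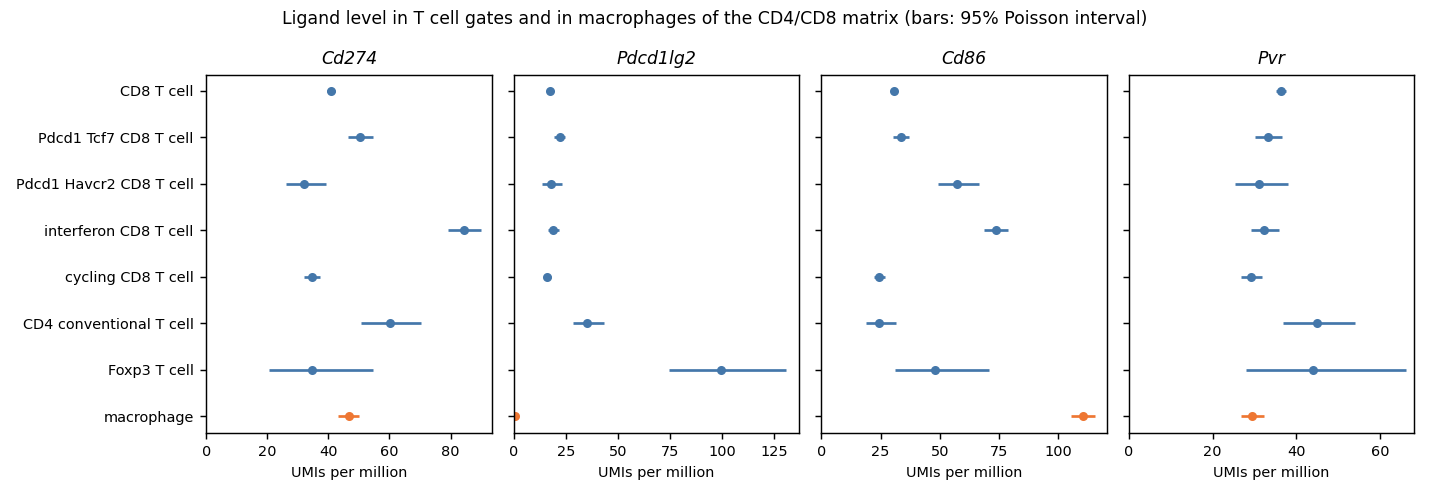
Levels of 4 ligands (x axis, CPM, with exact 95% Poisson intervals) in T cell gates and in macrophages (orange) of the CD4/CD8 matrix. Cd274 is highest in interferon CD8 T cells (84.5) and Pdcd1lg2 in Foxp3 T cells (99.7), while Pdcd1lg2 in macrophages is at 0.638.

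The T cells of the CD11c matrix held Cd274 at 66.5 CPM, Cd80 at 54.7 and Cd40 at 56.7, where CD8 T cells of the CD4/CD8 matrix held 0.370 of Cd40. Of the 29 Cd40 UMIs, 21 came from barcode run 1. The runs with at least 5 of these T cells gave 131, 0, 75.8 and 0 CPM, and without run 1 the Cd40 level fell to 22.8 CPM and Cd274 to 45.6. In that gate, Adgre1 stood at 0.00518 of the macrophage level and Il4i1, a migratory DC marker, at 56.7 CPM. The part of DC transcripts in these 76 cells was not tested.

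Single cells differed in how many ligands they held at once. With every cell thinned to 2000 UMIs, 59.7% of 181 migratory DCs had UMIs of at least 2 of the 10 ligands and 30.4% of at least 3. For cDC2 these shares were 40.7% and 15.3%, for cDC1 18.2% and 4.29%, for macrophages 16.9% and 3.27%, and for CD8 T cells of the CD4/CD8 matrix 3.06% and 0.185%. Tumor cells gave 2.61% for at least 2 ligands and 0 of 230 cells for at least 3, which allows up to 1.30% at that depth. Thinning left out shallower cells and kept 5176 macrophages and 15669 CD8 T cells.

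Receptors of these ligands were found in T cells, and some of them in myeloid cells too. CD8 T cells held Pdcd1 at 250.1 CPM, Cd28 at 354, Cd27 at 287.5, Icos at 161.5, Ctla4 at 104 and Tnfrsf9 at 79.6, and CD4 conventional T cells held Cd40lg at 85.2 against 1.29 CPM in CD8 T cells. Of the 11 receptors, 3 were higher by 2-fold in CD4 than in CD8 T cells (Ctla4, Icos and Cd40lg), beside 12.2% of genes, and Pdcd1 was at 0.498. Against macrophages, migratory DCs were higher by 2-fold in 2 of the 7 receptors with enough UMIs, beside 17% of genes. Of these, Tnfrsf9, the receptor of the Tnfsf9 product, stood at 103 CPM in migratory DCs, 15.0-fold above macrophages (CI 12.7 to 17.7). Cd226, a receptor of Pvr and Nectin2, stood at 98.7 CPM in Retnla Ear2 myeloid cells against 5.23 in macrophages.

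Of 12 other ligands of T cell receptors, 11 had enough UMIs to compare migratory DCs with macrophages, and they did not move one way: 3 were higher by 2-fold, beside 17% of genes, and 5 lower, beside 23.6%. Higher were Tnfsf4, the OX40 ligand (49.0 against 0.509 CPM), Ceacam1 (20.4 against 5.76) and Tnfsf15 (3.18 against 0.890). Lower were Vsir, which encodes the inhibitory ligand VISTA (20.4 against 192 CPM), Lgals9 (11.3 against 117), Cd48 (46.7 against 143), Cd276 (2.72 against 14.3) and Tnfsf14 (0.454 against 15.7). In tumor cells Vtcn1, a B7 family member also called B7-H4, stood at 32.6 CPM with 0.0318 in macrophages, and Ceacam1 at 208 CPM against 5.76. The tumor value of Tnfsf9 fell from 6.67 to 2.14 CPM without barcode run 3.

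Across 14 gates of the CD11c matrix, Pearson's r of log2(CPM + 1) was computed between each ligand and 9222 genes with at least 20 CPM in a gate, as a description over gates that share libraries and depth. The genes most like Cd274 were Ostf1 (r = 0.949), Samsn1 (0.945) and Rab8b (0.941). Samsn1 was also the gene most like Cd80 (0.933). Cd86 was most like Irf5 (0.977), a transcription factor of myeloid cells, Cd40 most like Arl5c (0.951), and Nectin2 most like Tpm1 (0.968), a tropomyosin that was highest in tumor cells. Pdcd1lg2 was most like Pcgf5 (0.907), Icosl most like A530032D15Rik (0.863), Pvr most like Plekhg2 (0.903), and Tnfsf9 most like Mir155hg (0.853), the host transcript of miR-155. Cd70 did not reach 20 CPM in a gate and had no match. Among the ligands themselves, Cd274 and Cd80 (r = 0.857), Cd86 and Cd40 (0.827), Pdcd1lg2 and Cd70 (0.820), Cd40 and Tnfsf9 (0.814), and Cd274 and Cd40 (0.810) were the 5 of 45 pairs at 0.8 or more, and the pair of Cd86 and Nectin2 was lowest (-0.742).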

How the data were processed

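Raw UMI counts of genes by cells were deposited by the authors, 1 matrix for the CD11c-selected and 1 for the CD4/CD8-selected cells, each pooling 6 of the 12 samples, and no map from cells to samples was used here. The submitters' processing notes name Cell Ranger 3.0.2 and mm10. The counts were used as deposited. Cells with fewer than 200 detected genes were left out (341 and 295), and doublets were not removed. Barcode runs held 13314063 to 24231244 UMIs in the CD11c matrix and 16203038 to 30168668 in the CD4/CD8 matrix.

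Cells were gated on raw UMIs of marker genes. UMIs were summed per gate, and a ratio of 2 or more (1 UMI added to each sum, at least 20 UMIs over both gates) was counted. With 1 sample per matrix no test was made. Poisson and Clopper-Pearson 95% intervals (scipy 1.17.1) and the limit of 3 counts for a value of 0 cover counting error only. For shares, cells were thinned at random to 2000 UMIs. The text names all 10 ligands and, per ligand, the 3 or fewer genes of highest correlation. Other gate thresholds, filters and denominators were tried. Members, gates and lists were chosen with earlier results of these data known. Python 3.11.15, numpy 2.4.6 and pandas 2.3.3 were used. The results of 1 further gate of CD8 T cells are not reported here.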

Additional observations from a re-analysis of the deposited data

How the results depend on the processing

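No paired analysis was possible because the cells carry no replicate number and no result comes from a test. Gates were compared within barcode runs only as counts of runs. Beside each count stands the share of all genes past the same setting. At 4-fold in place of 2-fold the count of ligands fell to 2 for cDC2 over cDC1 (4.3%), to 1 higher (3.37%) and 0 lower (6.26%) for Retnla Ear2 myeloid cells over macrophages, to 1 for the Gpnmb Trem2 gate (2.02%), to 0 for each of the Il10 (0.543%), Thbs1 Vegfa (0.889%) and Tmem119 Zmynd15 (4.03%) gates, and to 1 for CD4 over CD8 T cells (2.95%). With no minimum of UMIs, tumor cells were higher in 2 ligands (44%). The Il10 gate gave 2 ligands with no minimum (19.8%), as a mean over cells (6.85%), with doubled gate minimums (5.47%), with gates set after thinning (4.5%), and, chosen after seeing the data, without barcode run 1 (4.78%), 2 (5.42%) or 4 (5.6%). The Gpnmb Trem2 gate gave 5 with gates set after thinning (7.88%). The causes were not tested.

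Among the gates compared in the CD11c matrix, migratory DCs had the highest level of Cd274, Pdcd1lg2, Cd40 and Cd70 in all 14 settings. In all 14, tumor cells had that of Nectin2 and cDC2 that of Tnfsf9. The highest gate of Cd80 was cDC2 in 8 settings, neutrophils in 4 and migratory DCs in 2, and that of Cd86 migratory DCs in 10 and cDC2 in 4. Icosl was highest in cDC2 in 13 settings and Pvr in migratory DCs in 13, and with gates set after thinning Icosl was highest in migratory DCs (27.4 CPM) and Pvr in monocytes (178 CPM). Leaving mitochondrial, ribosomal and the 50 most abundant genes out of the denominator raised levels 1.28 to 1.75 times. Gates set after thinning moved 14 of 80 levels of at least 5 CPM by over 1.5 times, and a minimum of 500 genes moved 0. The Nectin2 level of neutrophils was 0.775 as a mean over cells. Few cells limit the neutrophil, monocyte and Foxp3 T cell values.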
